A study of Mus musculus with 48 samples.

Results

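9 mouse loci of satellite-like and rRNA-like annotation, out of 55335 genes in the NudC and age count tables, were followed through 3 ONE-seq experiments on liver. They were chosen by their counts in one of these experiments, as loci whose ratio of captured to starting RNA was larger without the enzyme NudC than with it. 3 of them are satellite-like (Gm10800, Gm10801, Gm21738) and 6 are rRNA-like (CT010467.1, Gm23935, Gm24270, Mir6236, Lars2, Gm15564). The list came as names with no cut-off, so no locus lies just inside or outside one.

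In ONE-seq, the cyclase ADPRC joins a biotin-carrying alcohol (HEEB) to NAD-capped RNA in total RNA, and streptavidin beads capture the product (Enrich) beside a sample kept before capture (Input). After release from the beads, NudC cuts NAD caps and a second capture holds back RNA that still carries biotin. Every library came from liver of C57BL/6 mice and was sequenced after selection of polyadenylated RNA. The NudC experiment used 12-month-old mice, with 2 Enrich libraries after NudC (NudC+) and 2 after mock treatment (NudC-). Each arm also had 2 Input libraries, named after the arm, which were kept before capture and met neither treatment. The age experiment compared 4 young (2 months) and 4 aged (18 months) livers, each as Input and NudC-eluted Enrich. The spike-in experiment added a polyadenylated synthetic RNA, of which 0%, 1%, 5% or 10% carried the NAD cap and the rest the usual methylguanosine cap, to RNA of 18-month-old livers, with 3 Input and 3 NudC-eluted Enrich libraries per mixture. All p-values measure the spread between these libraries.

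Satellite DNA is made of short units repeated in tandem around centromeres, is packed into heterochromatin and gives little RNA in most adult tissues. Most ribosomal RNA is transcribed by RNA polymerase I and receives neither the methylguanosine cap nor a poly(A) tail. Ribosomal RNA makes up most of the RNA of a cell. NAD caps are put on at the start of transcription when NAD takes the place of ATP as the first nucleotide.

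The satellite-like loci are 3 short gene models annotated as protein coding in GRCm38. Gm10800 lies on the minus strand at chr2:98666547-98667301 (5 exons, 660 exon bases), Gm10801 on the plus strand at chr2:98662237-98664083 (4 exons, 504 bases), and Gm21738 on the minus strand at chr14:19415857-19418930 (6 exons, 681 bases). Their transcripts were 90.4% identical between Gm10800 and Gm21738, 89.8% between Gm10800 and Gm10801, and 88.3% between Gm10801 and Gm21738. The stretch below is printed because the capitals mark the 54 bases that all 3 transcripts share without a difference, the longest such run. It is coding sequence, read 5′ to 3′ along the transcript, from chr2:98667091-98667238 (minus strand, 2 exon blocks), chr2:98662372-98662515 (plus strand) and chr14:19417320-19418867 (minus strand, 3 exon blocks).
Gm10800: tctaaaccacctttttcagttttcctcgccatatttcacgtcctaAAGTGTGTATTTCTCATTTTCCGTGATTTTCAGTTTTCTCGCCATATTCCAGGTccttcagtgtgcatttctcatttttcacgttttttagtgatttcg
Gm10801: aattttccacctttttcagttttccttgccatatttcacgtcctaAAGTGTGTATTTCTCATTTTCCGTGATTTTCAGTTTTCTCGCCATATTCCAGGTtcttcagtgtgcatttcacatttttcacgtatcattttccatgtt
Gm21738: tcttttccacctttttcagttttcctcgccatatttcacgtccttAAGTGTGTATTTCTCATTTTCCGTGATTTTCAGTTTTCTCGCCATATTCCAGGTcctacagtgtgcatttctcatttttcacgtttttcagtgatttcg

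These transcripts are poor in G and C, at 35.9% in Gm10800, 34.3% in Gm10801 and 35.2% in Gm21738, beside a median of 49.2% over 141767 annotated transcripts. Each matched itself best when shifted by 225, 231 and 234 bases, where 56.3%, 52.7% and 62.4% of the bases were identical. All 3 shifts lie within 9 bases of each other. 10 other annotated genes had a match of at least 100 bases at 80% identity to one of the 3, and of the 9 with counts in the tables used here none held more than 60 in any library, the highest being Gm10718. Reads that match several copies may be left uncounted or placed at another copy, which was not tested. The 3 values are thus better read together than as 3 independent loci.

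The rRNA-like loci are less alike. CT010467.1 is a gene of annotation type rRNA on the minus strand at chr17:39846353-39848827, and it overlaps Gm42418 on the opposite strand and AY036118 on its own strand. The larger of these overlaps covers 1822 exon bases. Both of those genes were at 0 counts in all 48 libraries, so all assigned counts of this region lay in CT010467.1. Whether reads in the overlapping bases were assigned to any gene is not known. Gm23935 (plus strand, chr16:11144125-11144181, inside Zc3h7a on the opposite strand) and Gm24270 (minus strand, chr9:56223715-56223771, inside Peak1 on the same strand) are annotated as miRNA genes of 57 bases. Mir6236 (plus strand, chr9:110281287-110281409) is a miRNA hairpin of 123 bases. Lars2 (plus strand, chr9:123366927-123462666) codes for the mitochondrial leucyl-tRNA synthetase, which loads leucine onto tRNA in mitochondria, and Gm15564 (minus strand, chr16:35966752-35983230) is an antisense RNA of 821 exon bases opposite Parp9 and Kpna1.

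Gm23935 and Gm24270 are shown because they are the same 57 bases, all of them in capitals, with 73.7% G and C.
Gm23935: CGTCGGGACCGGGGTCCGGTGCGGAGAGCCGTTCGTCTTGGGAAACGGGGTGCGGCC
Gm24270: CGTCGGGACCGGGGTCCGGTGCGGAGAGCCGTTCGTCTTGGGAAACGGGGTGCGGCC

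Gm15564 and Lars2 share 72 bases with 1 difference, in the 3′ UTR of Lars2 and in an exon of Gm15564. 30 bases around the difference are shown, from chr16:35981737-35981766 (minus strand) and chr9:123462078-123462107 (plus strand), with the differing base in capitals (T23A, with positions counted from 1 at the 5′ end of the printed bases and the base of Gm15564 first).
Gm15564: ctaatagggaacgtgagctgggTttagacc
Lars2: ctaatagggaacgtgagctgggAttagacc
Between CT010467.1 and the other rRNA-like loci, the only match of at least 16 bases was one of 16 bases with Lars2, so the name rRNA-like rests on the annotation type for CT010467.1 and on the label for the other 5.

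The libraries held from 7242321 to 8725646 counts in the NudC experiment, from 9149931 to 14953661 in the age experiment and from 3694383 to 10277863 in the spike-in experiment. A floor of 3 counts was worth from 0.284 to 0.478 cpm (counts scaled to the TMM-adjusted library total) in the NudC, from 0.189 to 0.357 in the age and from 0.278 to 1.07 in the spike-in libraries. All 7 hepatocyte markers (Alb and others) held at least 10 counts in every library, with a summed level from 69804 to 132116 cpm, and so the liver label holds by its defining markers. Mitochondrially encoded genes were at 0 in all 8 NudC libraries, while they took from 4.14% to 5.99% of the Input counts of the other experiments. Intervals and floors given here cover counting error only.

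With and without NudC, the 9 loci fell into 2 patterns, described here without a test because these values chose them. The satellite-like loci were rare in Input and higher in every Enrich library. The rRNA-like loci were frequent in both, other than Gm15564, which had 70 to 138 counts in Input. Each rRNA-like locus was highest in the same Enrich library, NudC- replicate 2. Gm10800 had 1662 and 2467 counts in NudC- Enrich and 749 and 1159 in NudC+ Enrich. Its Input counts were 23 and 47 for NudC- and 331 and 47 for NudC+ (replicates 1 and 2). Every Enrich library was thus above every Input library, and 1 Input library, NudC+ replicate 1, stood apart from the other 3.

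The other satellite-like loci repeated this at lower counts. Gm10801 had 154 and 234 counts in NudC- Enrich, 68 and 107 in NudC+ Enrich, 3 and 4 in NudC- Input, and 39 and 3 in NudC+ Input. Gm21738 had 133 and 195 in NudC- Enrich, 54 and 94 in NudC+ Enrich, 3 and 2 in NudC- Input, and 23 and 4 in NudC+ Input. In NudC+ Input replicate 1 the 3 loci were at 9.02 to 13.8 times the mean cpm of the other 3 Input libraries (Gm10800 at 40.2 cpm against 2.73 to 4.59). The rRNA-like loci were not raised in that library, at 0.866 to 1.03 times the mean of the others. Gm10800 took from 84.2% to 88.7% of the counts of the 3 loci in the libraries of this experiment with at least 30 such counts, and 84.2% in that Input library.

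**Figure D1:**
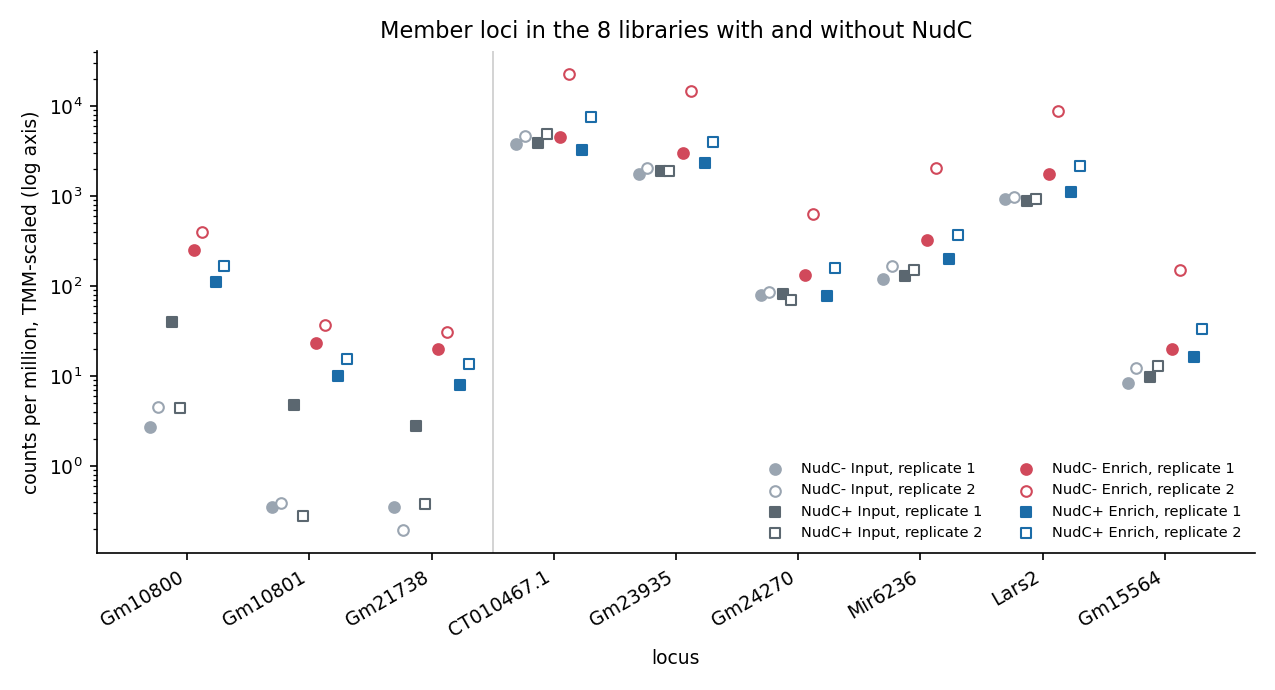
Level of each of the 9 loci in the 8 libraries of the NudC experiment, in TMM-scaled cpm on a log axis, with 1 point per library, circles for NudC-, squares for NudC+, filled symbols for replicate 1 and open symbols for replicate 2. The satellite-like loci left of the line sat lowest in 3 of the 4 Input libraries, with Gm10800 at 2.73 to 4.59 cpm there and 40.2 cpm in the fourth, and the rRNA-like loci had their highest value in NudC- Enrich replicate 2.

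Between Enrich libraries alone, the satellite-like loci were higher without NudC by a like factor in both replicates. Gm10800 was 2.28 and 2.35 times higher in NudC- than in NudC+ Enrich by cpm (replicates 1 and 2), Gm10801 2.32 and 2.42 times and Gm21738 2.53 and 2.29 times. The difference of the log2 Enrich to Input ratio depended far more on the replicate. For Gm10800 the ratio was 6.40 and 6.34 in NudC- and 1.45 and 5.15 in NudC+, so that the difference was 4.95 in replicate 1 and 1.19 in replicate 2. Gm10801 (4.24 and 1.00) and Gm21738 (3.64 and 1.68) followed it. The mean pair differences lay between 2.62 and 3.07. Set against one common Input in both arms, the Input cancels, whichever libraries it is taken from. The differences then came to between 1.21 and 1.25, which restates the difference between Enrich libraries on the log2 scale.

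The rRNA-like loci showed another order. CT010467.1 had 29858 and 143076 counts in NudC- Enrich and 21914 and 51664 in NudC+ Enrich, beside 31855 and 47992 in NudC- Input and 32024 and 51273 in NudC+ Input. Its cpm in NudC- Enrich replicate 2, 22779, was 5.04 times that of replicate 1 and above all other libraries, while NudC+ Enrich replicate 1 (3234 cpm) lay below every Input library (3779 to 4861 cpm). Lars2 had 11619 and 55396 counts in NudC- Enrich, 7438 and 14926 in NudC+ Enrich, 7869 and 9927 in NudC- Input, and 7244 and 9824 in NudC+ Input. In cpm every Enrich library of Lars2 was above every Input library (881 to 968 cpm), by least in NudC+ replicate 1 (1098 cpm).

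The identical pair differed widely in level, and neither could be told from the other by its 57 bases. Gm23935 had 19915 and 92780 counts in NudC- Enrich, 15584 and 27386 in NudC+ Enrich, 14907 and 20947 in NudC- Input, and 15444 and 19908 in NudC+ Input. Gm24270 had 865 and 3959 in NudC- Enrich, 528 and 1102 in NudC+ Enrich, 665 and 888 in NudC- Input, and 668 and 740 in NudC+ Input. By cpm all Enrich values of Gm23935 lay above its Input values (2300 against at most 2044), and those of Gm24270 overlapped (77.9 in NudC+ Enrich replicate 1, within 70.2 to 86.6 in Input).

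Mir6236 and Gm15564 had the widest gap among the 6 between the highest library and its replicate. Mir6236 had 2160 and 12859 counts in NudC- Enrich, 1365 and 2573 in NudC+ Enrich, 1009 and 1688 in NudC- Input, and 1056 and 1595 in NudC+ Input. Gm15564 had 131 and 950 in NudC- Enrich, 110 and 230 in NudC+ Enrich, 70 and 126 in NudC- Input, and 80 and 138 in NudC+ Input. In cpm, every Enrich library was above every Input library for both. NudC- Enrich replicate 2 was 4.81 to 7.62 times replicate 1 across the 6 rRNA-like loci, against 1.54 to 1.60 times across the satellite-like loci. The rRNA-like loci together took 3.88% of the counts of that library, 0.546% to 1.26% of the other 3 Enrich libraries and 0.766% to 1.08% of the Input libraries. Between NudC- and NudC+ Enrich, they differed by 1.22 to 1.68 times in replicate 1 and by 3.06 to 5.53 times in replicate 2.

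In the model of all 17325 genes, the fitted difference of the log2 ratio (NudC- minus NudC+) had a median of 1.94 over the 9 loci, 3.81 over the satellite-like and 1.60 over the rRNA-like loci, beside 0.02 over all genes (5th percentile -1.45, 95th percentile 1.51). All 9 were above 0, as the choice requires, where 51.5% of all genes were, and all 9 were at 1 or more, where 9.18% of all genes were. The largest was 3.89 for Gm10801, at place 72 of all genes from the top, and the smallest 1.40 for CT010467.1, at place 989. These values used the contrast that chose the loci and are given as a description.

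By level per kilobase of exon, the loci differed widely before any capture. In the 4 NudC Input libraries Gm23935 had a median of 33028 cpm per kb, followed by CT010467.1 with 1739, Gm24270 with 1404, Mir6236 with 1136, Lars2 with 84.1, Gm15564 with 13.4, Gm10800 with 6.85, Gm10801 with 0.74 and Gm21738 with 0.54. The ranges over libraries overlapped between Gm24270 and Mir6236, between Gm15564 and Gm10800, between Gm10800 and Gm10801, and between Gm10801 and Gm21738. Genes of 57 bases are shorter than a read, so that their level per length is the least certain of these. That of CT010467.1 was taken over all its exon bases, those that overlap other genes included.

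The age libraries were not used to choose the loci and gave the first test. The rRNA-like loci were lower after capture and NudC elution than in Input, 5 of 6 in young and all 6 in aged livers, whereas in the NudC libraries most of their Enrich values lay above Input. In young livers CT010467.1 had 3031, 3945, 3090 and 3448 cpm in Input and 469, 990, 306 and 492 cpm in Enrich (means 3378 ± 420 and 564 ± 296, SD, n = 4 each). In aged livers it had 2523, 2164, 1489 and 3019 cpm in Input and 288, 349, 283 and 219 cpm in Enrich (2299 ± 644 and 285 ± 53.1, SD, n = 4 each). At each age every Enrich library was below every Input library. By edgeR's quasi-likelihood test with Benjamini-Hochberg adjustment over 15636 genes, Enrich differed from Input by -2.58 on the log2 scale in young (SE 0.26, adjusted p = 2.8e-08) and by -3.01 in aged livers (SE 0.27, adjusted p = 3.7e-09).

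Of the 9 loci, 6 passed the filter of zero counts in at most 25% of the age libraries and were tested; the 3 satellite-like loci did not pass. In young livers 5 of the 6 were lower in Enrich (adjusted p under 0.05 and at least 2-fold), beside 14.2% of all genes, and 0 were higher, beside 13.0%. In aged livers 6 of 6 were lower, beside 14.3% of all genes, and 0 higher, beside 11.5%. Their median log2 fold change was -2.33 in young and -2.62 in aged livers, beside 0.00 and -0.01 over all genes tested. Enrich and Input libraries did not overlap, with Enrich lower, for 5 of 6 loci in young (23.4% of all genes) and 6 of 6 in aged livers (26.5% of all genes).

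Gm24270 had the lowest fold change of the 6. It had 51.2, 68.2, 43.7 and 49.5 cpm in young Input and 2.75, 8.93, 4.13 and 7.0 cpm in young Enrich, and 37.1, 32.8, 25.8 and 46.0 cpm in aged Input and 3.50, 2.83, 2.74 and 1.38 cpm in aged Enrich. Enrich lay far below Input at both ages, with log2 fold changes of -3.23 (SE 0.26, adjusted p = 1.0e-09) and -3.74 (SE 0.28, adjusted p = 3.2e-10) by edgeR's test, the latter the 11th lowest of 15636 genes. Its twin Gm23935 ranged from 1201 to 1765 cpm in young Input and from 93.1 to 326 cpm in young Enrich, and from 671 to 1188 cpm in aged Input and from 54.0 to 119 cpm in aged Enrich. Its log2 fold changes by edgeR's test were -3.09 (SE 0.30, adjusted p = 1.4e-08) in young and -3.37 (SE 0.30, adjusted p = 4.8e-09) in aged livers.

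Lars2 had 662, 832, 550 and 702 cpm in young Input and 139, 270, 83.3 and 159 cpm in young Enrich. In aged livers it had 454, 387, 325 and 513 cpm in Input and 74.6, 116, 91.5 and 76.9 cpm in Enrich. The groups did not overlap, and the fold changes were -2.08 (SE 0.24, adjusted p = 2.1e-07) in young and -2.22 (SE 0.24, adjusted p = 9.0e-08) in aged livers by edgeR's test. Mir6236 ranged from 64.1 to 94.1 cpm in young Input and from 12.1 to 47.1 cpm in young Enrich, and from 40.8 to 57.4 cpm and from 6.24 to 18.3 cpm in aged livers. It was lower in Enrich at both ages, by a log2 fold change of -1.62 (SE 0.29, adjusted p = 7.1e-05) and -2.12 (SE 0.31, adjusted p = 4.1e-06) by edgeR's test.

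Gm15564 was the exception in young livers. It had 6.05, 8.03, 5.22 and 7.45 cpm in young Input and 7.27, 4.88, 1.69 and 6.27 cpm in young Enrich. These groups overlapped, and the fitted log2 fold change, -0.42 (SE 0.28), did not pass edgeR's test (adjusted p = 0.21). In aged livers the values were 4.63, 5.30, 4.24 and 4.90 cpm in Input and 1.79, 2.46, 2.41 and 2.29 cpm in Enrich. Here the groups were apart, and Gm15564 fell by 1.10 (SE 0.29, adjusted p = 0.0032) by edgeR's test.

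**Figure D2:**
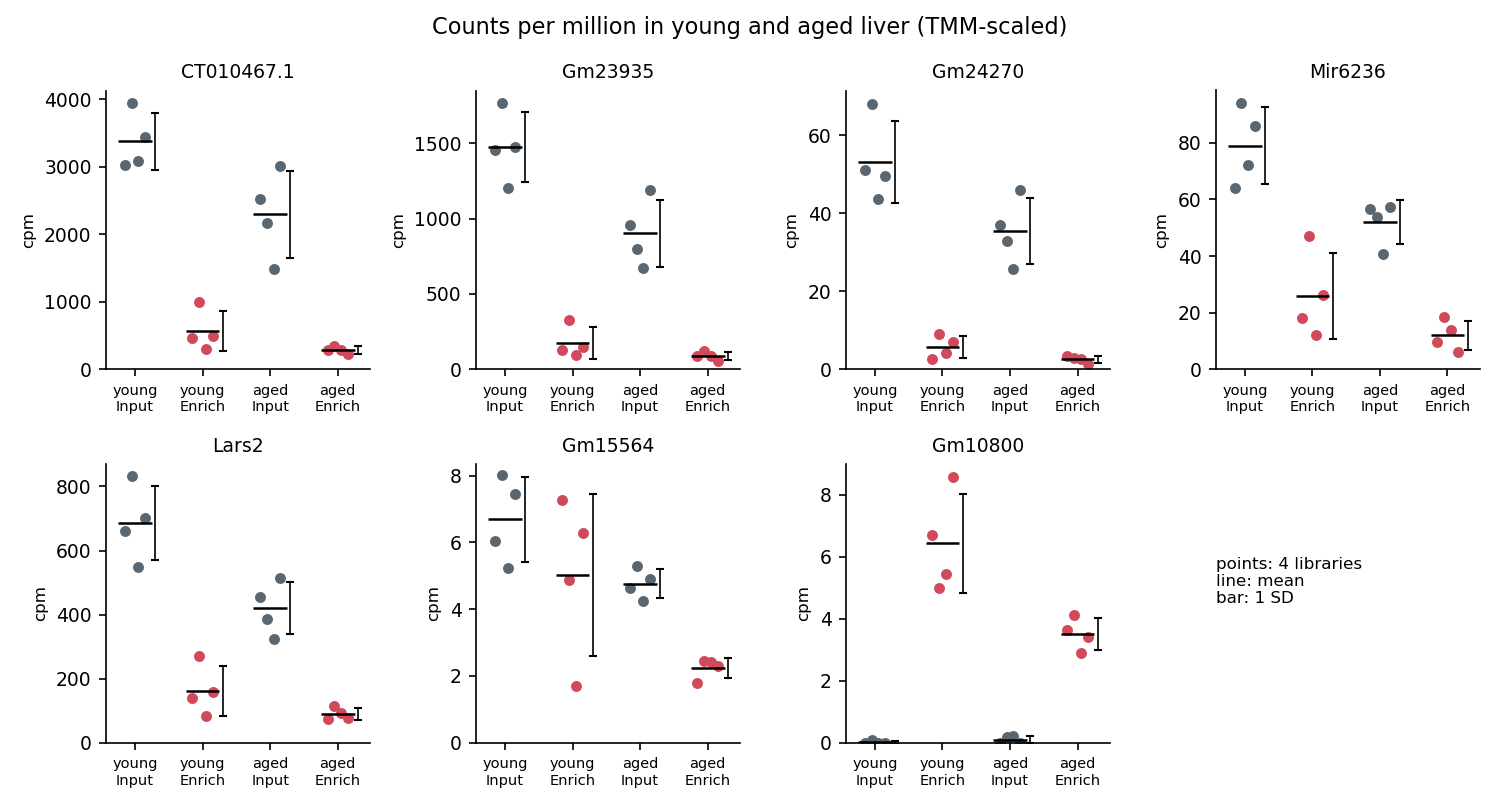
Level of the 6 rRNA-like loci and of Gm10800 in young and aged liver, in TMM-scaled cpm, with 1 point per library (4 per group), a line at the mean and a bar of 1 SD. Enrich lay below Input without overlap for the rRNA-like loci other than Gm15564 in young livers, and Gm10800 lay above Input, at 5.00 to 8.57 cpm in young and 2.90 to 4.11 cpm in aged Enrich.

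The satellite-like loci kept the direction they had in the NudC libraries, at far lower counts. Gm10800 had 0, 1, 0 and 0 counts in young Input and 61, 42, 58 and 93 counts in young Enrich. In aged livers it had 0, 3, 3 and 0 counts in Input and 51, 45, 35 and 37 counts in Enrich. Every Enrich library was above every Input library. The ratio of the summed cpm was 277 in young livers (95% exact interval from 49.4 to 11003) and 33.7 in aged livers (15.2 to 93.1). Since the zero filter left these loci out of the test, exact two-sided permutation tests over the 4 Enrich and 4 Input libraries were added after seeing the data, and both gave p = 0.0286, the smallest value that 4 against 4 allows. This test does not use the pairing of Enrich and Input from the same liver, and an exact test of 4 pairs cannot go below 0.125.

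Gm10801 had 0 counts in all 8 Input libraries, 5, 5, 7 and 10 counts in young Enrich and 6, 4, 1 and 10 in aged Enrich. Against a floor of 3 counts over the 4 Input libraries, Enrich was at least 9.83-fold higher in young and at least 8.42-fold higher in aged livers. Gm21738 had 2, 2, 2 and 4 counts in young Enrich beside 1 count in 4 Input libraries, and 1, 2, 2 and 3 counts in aged Enrich beside 1 count in 4 Input libraries. The ratio of summed cpm was 10.9 (1.55 to 474) in young and 9.63 (1.29 to 427) in aged livers, with overlapping groups in the aged. The exact permutation test gave p = 0.0286 for Gm10801 at both ages and for Gm21738 in young livers, and p = 0.0571 for Gm21738 in aged livers. The 3 loci together made up from 0.000299% to 0.000839% of the Enrich counts of the age libraries, beside 0.0101% to 0.0363% of those of the NudC libraries.

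Between the ages, no difference in the enrichment itself passed the test. The aged minus young difference of the log2 fold change ranged from -0.68 (SE 0.40) for Gm15564 to -0.15 (SE 0.33) for Lars2, and the adjusted p by edgeR's quasi-likelihood test was 1 for all 6. No gene passed this test, with 0.0% of 15636 genes by edgeR and also 0.0% by DESeq2. At an unadjusted p under 0.05 there were 588 genes (3.76%) by edgeR and 576 (3.68%) by DESeq2. All 6 differences were below 0, and that of Lars2 came to 0.01 without replicate 4.

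In Input alone, Lars2 was lower in aged than in young livers, and the other rRNA-like loci had values of similar size that did not pass the test. Its cpm of 325 to 513 in aged Input lay below the 550 to 832 of young Input, with a log2 fold change of -0.71 (SE 0.23, adjusted p = 0.029 by edgeR's quasi-likelihood test with Benjamini-Hochberg adjustment). The other 5 ranged from -0.71 (Gm23935, adjusted p = 0.067) to -0.48 (Gm15564, adjusted p = 0.20). 1 of 6 was thus lower at an adjusted p under 0.05, beside 12.0% of all genes. Whether the counts of Lars2 come from its synthetase mRNA was not tested. CT010467.1, Gm23935, Mir6236 and Lars2 had no overlap between aged and young Input, 4 of 6 beside 14.6% of all genes. With the replicate number as a block, 4 of 6 passed (CT010467.1, Gm23935, Gm24270 and Lars2). That block joins young and aged livers of the same number, which were different mice, so this count is no support. Without replicate 1 or without replicate 4 Lars2 did not pass, at an adjusted p of 0.077 and 0.066 by edgeR's quasi-likelihood test. With library size alone (adjusted p = 0.093 by the same test) or by DESeq2's Wald test (adjusted p = 0.058), Lars2 did not pass either, and 0 of 6 did. In these bulk samples, fewer cells of a type and less RNA per cell cannot be told apart.

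The spike-in libraries, also of NudC-eluted RNA, gave the opposite direction for the rRNA-like loci. Over the mean of the 4 mixtures, all 7 loci that passed the zero filter were higher in Enrich (adjusted p under 0.05 and at least 2-fold), beside 11.4% of 14850 genes, and 0 were lower, beside 13.4%. Gm10801 and Gm21738 did not pass the filter. The median log2 fold change of the 7 was 2.23, beside -0.05 over all genes tested. This mean joined mixtures that did not behave alike, as the values of CT010467.1 show.

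CT010467.1 ranged from 1768 to 3729 cpm over the 12 Input libraries. In Enrich it had 6424, 1198 and 843 cpm with 0% NAD-capped spike-in, 13349, 4156 and 100685 cpm with 1%, 1125, 837 and 751 cpm with 5%, and 50375, 42847 and 5927 cpm with 10%. With 1% and 10% every Enrich library was above every Input library of its mixture, with 5% every one was below, and with 0% the groups overlapped. By edgeR's test, Enrich with 1% differed from Input by 4.14 on the log2 scale (SE 0.88, adjusted p = 0.0024) and with 10% by 4.03 (SE 0.88, adjusted p = 0.0023). With 5% the value was -1.10 (SE 0.78, adjusted p = 0.26), and with 0% it was 0.12 (SE 0.77, adjusted p = 0.91). The spread within a mixture was large, since the 3 Enrich libraries with 1% covered 4156 to 100685 cpm.

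The mean log2 ratios of the other rRNA-like loci lay on the same side of Input as that of CT010467.1 with 1%, 5% and 10%, except that Gm15564 was above Input with 5%. With 1% and with 10% all 7 tested loci were called higher, beside 7.14% and 8.38% of all genes. With 0% Gm10800 and Gm15564 were called (2 of 7, beside 9.53%), and with 5% Gm10800 alone (1 of 7, beside 12.7%). Enrich lay above Input without overlap for 7 of 7 loci with 1% (16.2% of all genes) and 7 of 7 with 10% (23.1%). With 0% this held for 2 of 7 (24.5%), and with 5% 2 of 7 were above (28.0%) and 5 of 7 below (30.4%).

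These mixtures also differed in a gene outside the list. Nnt, a mitochondrial transhydrogenase whose gene carries a deletion in the C57BL/6J substrain, had 5 to 12 counts in Input with 0% and 3 to 5 with 5%, but 752 to 985 with 1% and 1008 to 1057 with 10%. The mixtures thus formed 2 sets in Input, which the labels, with C57BL/6 for all, do not separate. The set and the amount of NAD-capped spike-in cannot be told apart for 0% and 5% against 1% and 10%. With the 0% and 5% mixtures alone, 2 of 7 loci were called higher (beside 12.5% of all genes), Gm10800 with a log2 fold change of 4.59 and Gm15564 with 2.02. CT010467.1 (-0.49), Gm23935 (-0.90), Gm24270 (-0.41) and Lars2 (-0.05) then changed sign and did not pass the test. With the 1% and 10% mixtures alone, 7 of 7 were called higher (beside 9.11%), from 3.67 for Gm24270 to 5.90 for Gm15564.

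Gm10800 was called in each of the 4 mixtures. Its Enrich counts were 33, 80 and 324 with 0%, 18, 78 and 42 with 1%, 50, 71 and 640 with 5%, and 25, 34 and 160 with 10%. Its Input counts were 2, 3 and 13, then 3, 5 and 0, then 6, 4 and 35, and then 0, 2 and 6 in the same order. Enrich lay above Input without overlap in each mixture, at 31.3 times (95% interval from 19.6 to 53.3), 28.2 times (13.9 to 66.7), 18.9 times (13.9 to 26.1) and 42.9 times (lower bound 21.4) the summed Input cpm. The mean log2 fold change was 4.79 (SE 0.60, adjusted p = 4.0e-07 by edgeR's test), the second highest of 14850 genes.

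Gm10801 and Gm21738 were near the floor in the spike-in Input libraries, with at most 4 and 6 counts. In Enrich they had up to 63 and 52 counts, both in replicate 3 with 5%, where Gm10800 was highest too. Gm10801 had 0 counts in 4 of the 12 Enrich libraries, and with 0% it had 0, 7 and 35 counts in Enrich beside 0 in each Input library, so that the groups overlapped and 1 library held most of the counts. With 1% it had 4 counts in 3 Enrich libraries beside 1 in 3 Input libraries. Gm21738 with 5% was at 13.8 times the summed Input cpm (95% interval from 5.62 to 44.1), with 5 counts in 1 Input library above the 3 counts in 1 Enrich library by number. The exact permutation test of 3 against 3 cannot go below 0.1, so no such test could pass here.

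Gm15564 gave the second largest mean fold change, 3.96 (SE 0.43, adjusted p = 5.1e-08 by edgeR's test), and its Enrich counts changed apart from the other rRNA-like loci. It had 341, 596 and 150 counts in Enrich with 0%, 7053, 372 and 3025 with 1%, 189, 82 and 120 with 5%, and 1362, 1208 and 356 with 10%, and from 40 to 108 counts in Input. Per 100 counts of CT010467.1 it held 0.226 to 0.441 counts over the Input libraries, but 18.8 in Enrich replicate 1 with 1% and 7.67 in Enrich replicate 2 with 0%. In the same libraries Lars2, which shares 72 bases with Gm15564, stood at 110 and 46.0 counts per 100 of CT010467.1, beside 18.3 to 21.1 in Input. Both loci thus stood high against CT010467.1 in the same 2 libraries. They were not alone in deviating there. Mir6236 had its highest spike-in value, 10.3, in Enrich replicate 2 with 0%, beside 2.98 to 4.12 in Input. Gm23935 (8.96) and Gm24270 (0.386) had their lowest in Enrich replicate 1 with 1%.

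**Figure D3:**
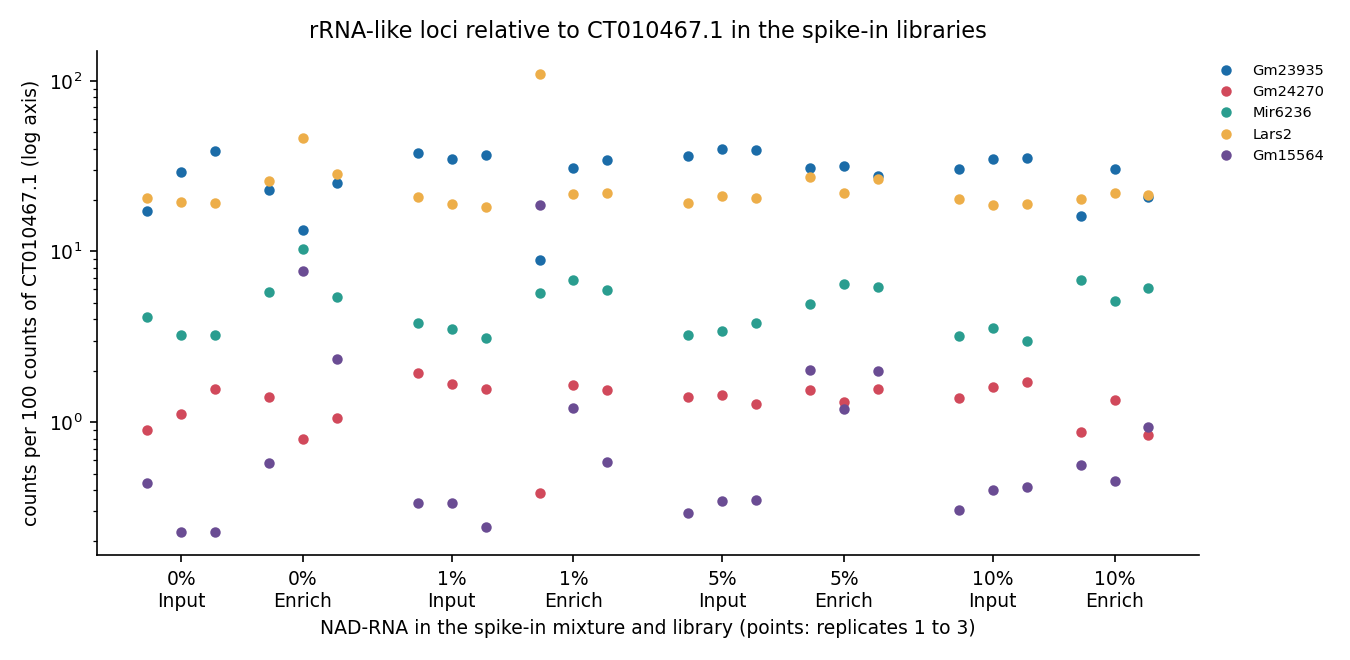
Counts of 5 rRNA-like loci per 100 counts of CT010467.1 in the 24 spike-in libraries, on a log axis, with 1 point per library and 3 per group. Lars2 and Gm15564 stood apart in Enrich replicate 1 with 1% (110 and 18.8) and replicate 2 with 0% (46.0 and 7.67). In Input they stayed within 18.3 to 21.1 and 0.226 to 0.441. Mir6236 was also at its highest in Enrich replicate 2 with 0% (10.3). Gm23935 (8.96) and Gm24270 (0.386) were at their lowest in Enrich replicate 1 with 1%.

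The remaining 4 rRNA-like loci had mean log2 fold changes of 2.61 (SE 0.40, adjusted p = 5.3e-06) for Mir6236, 2.23 (SE 0.37, adjusted p = 1.5e-05) for Lars2, 1.63 (SE 0.48, adjusted p = 0.0047) for Gm24270 and 1.40 (SE 0.47, adjusted p = 0.011) for Gm23935 by edgeR's quasi-likelihood test. In Enrich replicate 3 with 1%, Gm23935 had 34490 cpm, Lars2 22208, Mir6236 5987 and Gm24270 1550, each the highest of the 24 libraries. The Input libraries ranged from 393 to 1439 cpm for Gm23935, 345 to 720 for Lars2, 57.6 to 122 for Mir6236 and 19.5 to 58.5 for Gm24270. Without replicate 1, Gm23935 (0.93, adjusted p = 0.12) and Gm24270 (1.11, adjusted p = 0.077) no longer passed the test.

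In that highest library the rRNA-like loci took 15.4% of all counts (95% Wilson interval from 15.4% to 15.5%), and they took 5.67% and 6.00% in Enrich replicates 1 and 2 with 10%. The share was from 0.108% to 2.48% in the other 9 Enrich libraries and from 0.318% to 0.743% in the 12 Input libraries. Mitochondrially encoded genes took 3.99% of the counts in the highest library, 1.40% and 2.07% in the other high ones and from 0.544% to 2.86% in the other 9. Their part in the result was not tested. The share of the rRNA-like loci was smaller in the age experiment, at 0.0339% to 0.129% in Enrich and 0.314% to 0.706% in Input.

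Across all 24 pairs of Enrich and Input libraries with the same number, the spread of the log2 ratio depended on the experiment. In the age experiment the mean over the rRNA-like loci had an SD of 0.50 between pairs, against a median SD of 0.90 between the 6 loci within a pair. In the spike-in experiment these values were 2.44 and 0.85. The mean over the satellite-like loci had an SD of 0.61 between pairs against 1.79 between the 3 loci in the age experiment, and of 0.91 against 1.5 in the spike-in experiment. In the NudC experiment, whose ratios chose the loci, the SD between pairs was 1.21 against 0.40 within for the rRNA-like and 2.17 against 0.29 for the satellite-like loci. The log2 ratio was above 0 in 12 of 12 satellite-like values of the NudC, 24 of 24 of the age and 31 of 36 of the spike-in experiment. It was above 0 in 22 of 24, 1 of 48 and 49 of 72 rRNA-like values. These values pool the loci over 4, 8 and 12 pairs and are not independent, and no share over all genes was computed for them. The 3 experiments were separate, so the shift of the rRNA-like loci between them is a description. The aged and the spike-in livers were both 18 months old, and the NudC livers were 12 months old. The cause of the shift was not tested. Pair ratios of low counts are drawn toward 0 by the prior count of 2, which bears most on Gm10801 and Gm21738.

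**Figure D4:**
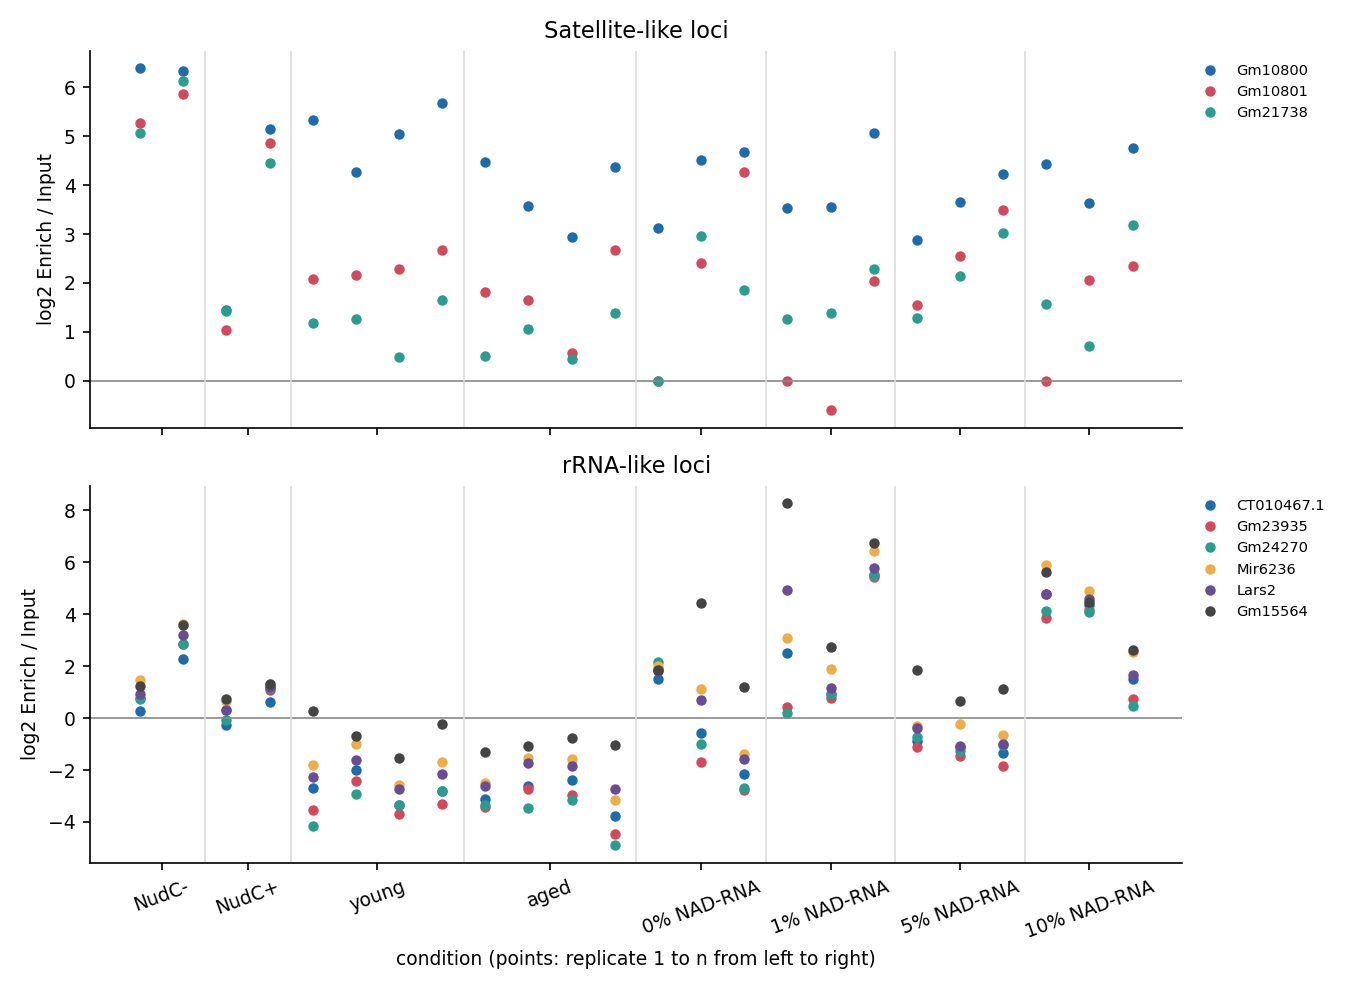
Log2 ratio of Enrich to Input (cpm with a prior count of 2) for each pair of libraries with the same number, with the 3 satellite-like loci above and the 6 rRNA-like loci below, over 8 conditions. Over the 8 pairs of the age experiment, the rRNA-like points were below 0 in 47 of 48 values (6 loci). The satellite-like points were above 0 in all 24 values (3 loci).

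By root mean square difference of the log2 ratio over the 24 pairs, the NudC pairs that chose the loci included, and among 11566 genes outside the list, the genes nearest to the mean of the satellite-like loci were Plac8 (1.01), Wfdc17 (1.10) and Atp5j (1.18), beside 1.07 (0.87 to 1.64) for the loci themselves. Plac8 stayed above 0 in every pair, from 1.47 to 3.01 in the spike-in, 2.01 to 3.29 in the age and 3.44 to 4.48 in the NudC experiment. Nearest to the rRNA-like mean were Gm24187 (0.75), annotated as a miRNA, the small nuclear RNA Rn7sk (1.27) and the nuclear RNA Malat1 (1.93), beside 0.77 (0.40 to 1.91) for the loci themselves. Gm24187 ran from -3.37 to -0.94 in the age, -2.62 to 5.91 in the spike-in and 0.63 to 2.80 in the NudC experiment.

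Genes that work with these RNAs were read beside the loci in the age libraries, where the median of all genes was 0.00 in young and -0.01 in aged livers and where 13.0% and 11.5% of all genes were higher and 14.2% and 14.3% lower. Of 19 genes of rRNA synthesis (RNA polymerase I and its factors), 0 were higher and 0 lower in Enrich at either age, with medians of 0.14 in young and 0.27 in aged livers. Of 16 mitochondrial aminoacyl-tRNA synthetases, the enzyme family of Lars2, 1 was higher and 2 were lower in young, and 1 higher and 1 lower in aged livers (medians 0.03 and 0.08). Lars2 itself had 4219 to 8608 counts in the age Input libraries. The highest count among these 16 in any age library was 865, for Iars2. Nars2, which loads asparagine, was higher (log2 fold change 1.83 in young and 1.73 in aged livers, adjusted p = 4.3e-10 and 1.2e-09 by edgeR's test), and Iars2, which loads isoleucine, was lower (-1.51 and -1.27, adjusted p = 3.4e-10 and 2.9e-09). Of 14 genes of pericentric heterochromatin, where satellite DNA lies, 2 were higher and 3 lower at each age (medians -0.47 and -0.38), among them Cenpa, the centromeric histone (1.62 in young livers, adjusted p = 6.2e-09), and Atrx, a chromatin remodeller (-1.41, adjusted p = 7.2e-05).

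Other RNAs of similar kind were mostly too rare to test. Of 353 genes of annotation type rRNA, 1 passed the zero filter of the age libraries, n-R5-8s1. It was lower in Enrich by a log2 fold change of -4.16 in young (SE 0.51, adjusted p = 3.9e-07) and -6.00 in aged livers (SE 0.69, adjusted p = 1.7e-07 by edgeR's test), the direction of CT010467.1 there. Over the mean of the spike-in mixtures 2 of the 353 were tested, with 0 higher, 0 lower and a median of -0.28. CT010467.1 was called higher in that comparison (1.80). Of 10 other short non-coding RNAs 1 was tested, Rn7sk, at -1.06 in young livers (not called) and -3.61 in aged livers (adjusted p = 0.0012). Of 140 tested genes that share sequence with Lars2 or Gm15564, 25 were higher and 21 lower in young livers, beside 13.0% and 14.2% of all genes. In aged livers 17 were higher and 21 lower, beside 11.5% and 14.3% of all genes. The medians of these 140 genes were 0.14 and 0.04. Of 4 nuclear retained RNAs, Malat1 was lower at both ages (-1.55 and -1.06, adjusted p = 0.0031 and 0.018).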

How the data were processed

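Per the study's methods, the authors used Trim Galore to trim paired reads, STAR to place them on GRCm38 and featureCounts to count read pairs per gene of the Gencode annotation; no option for strand or for reads with several hits was named. They deposited whole-number counts, 1 table per experiment, without normalization. 4 further columns of the NudC table matched no labelled sample and were not used. Groups came from the labels. For log2 ratios, each Enrich library was set against the Input library of the same number, also in the spike-in table, where the number was not shown to pair libraries. The members and gene lists were chosen with earlier results of these data known.

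Genes with zero counts in over 25% of a table's libraries were removed as in the study. Scaling was by TMM. The quasi-likelihood test of edgeR 4.0.16 (R 4.3.3) was run on a fit of all groups of a table, with Benjamini-Hochberg adjustment over all genes tested. This fit took each library as independent and did not use the pairing of Enrich and Input from the same liver. Whether the spike-in mixtures shared livers is not stated, so their libraries may not all be independent. A locus was called higher or lower in Enrich at an adjusted p under 0.05 and a fold change of at least 2, and between ages at an adjusted p under 0.05. The script was tested on simulated data. Cpm used TMM-scaled totals, and log2 pair ratios a prior count of 2. The genes named are all members, the 3 genes nearest in pattern to each set and at most 2 called genes per list and age. Alternatives were DESeq2 1.42.0, other scalings and filters, a replicate block and leaving out each replicate. Annotation, transcripts and sequences were those of GENCODE M21 on GRCm38, matched with blastn 2.17.0+; 181 identifiers in the NudC and age tables did not match it. The sequence of Mir6236 is not reported here. Tables were made with Python 3.11.15, pandas 2.3.3, numpy 2.4.6 and scipy 1.17.1, and figures with matplotlib 3.10.9.

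Same-numbered Enrich and Input libraries deviated together in the age table (correlation of deviations from the group means 0.14 to 0.26 in 8 pairs) and in the NudC table (0.50 to 0.54 in 4 pairs), so the numbers pair these libraries. With 2 libraries per group, the deviations of the NudC table are mirror images and the check is weak.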

Additional observations from a re-analysis of the deposited data

Results flagged for a closer look

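CT010467.1, Gm23935, Gm24270, Mir6236 and Lars2 lay above Input in every pair of some conditions and below it in every pair of another. Between the spike-in mixtures, every pair of these 5 loci with 1% or 10% NAD-capped spike-in had Enrich above Input and every pair with 5% had it below. The difference of the mean log2 ratio between 1% and 5% was 4.11 for CT010467.1, 3.68 for Gm23935, 3.20 for Gm24270, 4.20 for Mir6236 and 4.76 for Lars2. The difference between 5% and 10% was -4.66, -4.38, -3.89, -4.81 and -4.49 in the same order. Gm15564, the other rRNA-like locus, was above Input in all 3 pairs with 5%, from 0.64 to 1.86. These differences were not tested, and the mixtures also differ in Nnt counts in Input, as given above.

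Between experiments, Gm23935, Mir6236 and Lars2 had Enrich above Input in both NudC+ pairs of 12-month livers and below it in every young and aged pair, and Gm15564 did so against the aged pairs. CT010467.1 (-0.27) and Gm24270 (-0.06) were below Input in NudC+ replicate 1, and Gm15564 was above it in young replicate 1 (0.26). The NudC+ values are among those that chose the loci. The differences of the mean log2 ratio from young livers were 3.92 for Gm23935, 2.74 for Mir6236 and 2.95 for Lars2. Those from aged livers were 4.07 for Gm23935, 3.17 for Mir6236, 2.99 for Lars2 and 2.06 for Gm15564. They were not tested, and age and experiment cannot be told apart here.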

How the results depend on the processing

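Of 388 values of single loci under alternatives, 363 kept their direction and their side of the threshold, 12 passed the test newly, 8 no longer passed it and 5 changed sign. The satellite-like loci entered the age test only under other filters. Without a filter beyond 1 count 2 loci were higher in Enrich in young and 2 in aged livers, with a mean of at least 10 counts 1 and 1, and with only the groups compared 1 in aged livers, in place of 0. The loci pass such filters through their Enrich counts, so these calls are no support. The exact permutation test, added after seeing the data, gave an unadjusted p under 0.05 for 3 loci in young and 2 in aged livers. No share of all genes was computed for it and the loci are near copies, so these counts are not like the calls. In edgeR's test, leaving out 1 replicate at a time gave 0 to 1 at both ages. The count of loci lower in aged than in young Input, 1, came to 0 with library size alone or DESeq2, 5 without the filter, 5 with only the groups compared, 4 with the replicate block, and 0 to 1 without 1 replicate. The block, which joins young and aged mice by number alone, moved no other count of calls by over 1.5 times. In the spike-in libraries, the 7 loci called became 2 with only the mixtures with 0% and 5% NAD-RNA, also added after seeing the data. There CT010467.1 (-0.49), Gm23935 (-0.90), Gm24270 (-0.41) and Lars2 (-0.05) changed sign, and Mir6236 came to 0.30. The age difference of Lars2 came to 0.01 without replicate 4. With library size alone Gm23935 did not pass the spike-in test (1.02, adjusted p = 0.074). The causes were not tested.

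Library size alone moved the median of all genes to -0.38 in young, -0.39 in aged and -0.50 in the spike-in comparison. For the NudC median of 1.94, other scalings and filters gave 1.77 to 1.97 and the replicate block 1.68. The median of mean pair differences of 1.39 came to 0.79 to 1.69 without 1 replicate. The numbers of the spike-in libraries set the pairs for the log2 ratios but were not taken as shown to pair livers. The correlation of deviations was 0.05 to 0.23, and 11 of 12 Enrich libraries were nearest to their own number. Depth limits Gm10801 and Gm21738 most, with at most 6 counts in every Input library other than NudC+ replicate 1. For the age difference of enrichment and the mean of the mixtures, every group of the table enters the comparison, so no fit with only the groups compared was run.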
